A study of Solanum lycopersicum with 6 samples.

Results

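Aux/IAA genes encode transcriptional repressors of auxin signalling, and the 10 described here are the tomato genes *IAA2*, *IAA3*, *IAA4*, *IAA7*, *IAA8*, *IAA9* (*ENTIRE*), *IAA14*, *IAA15*, *IAA19* and *IAA27*. They were picked by gene name and identifier, with earlier results of these data known, from the 35821 genes of a table of RNA-seq read counts. The table compares leaves of a *kyp* mutant with leaves of wild type (WT) tomato, cultivar M82, with 3 biological replicates of each genotype. *KYP* (*KRYPTONITE*) encodes a histone methyltransferase of H3K9me2, a mark of silent chromatin. Mutant and WT share the M82 background and were grown under normal conditions in chambers at 24 °C with 16 h of light, and RNA came from the fourth leaf of 4-week-old plants. The mutation and the number of independent mutant lines are not given in the sources used here, so that a difference between the genotypes cannot be told apart from a difference particular to the line.

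When auxin is low, Aux/IAA proteins bind auxin response factors (ARFs) and hold the target genes of these factors in check. Auxin joins an Aux/IAA protein to a receptor of the TIR1/AFB family, which leads to the degradation of the repressor and frees the ARF. Many Aux/IAA genes are themselves switched on by auxin, so that the family forms part of a feedback loop. In tomato leaves, IAA9 is known for its role in leaf shape, since *entire* plants make simplified leaves in place of compound ones.

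The names were taken in the order in which the members were listed. RefSeq holds 9 of the 10 symbols, all but *IAA14*, and places all 9 on the chromosome whose number the identifier carries. *IAA19* (Solyc03g120380), *IAA15* (Solyc03g120390) and *IAA27* (Solyc03g120500) belong to chromosome 3, and *IAA9* (Solyc04g076850) to chromosome 4. Chromosome 6 holds *IAA7* (Solyc06g053830), *IAA4* (Solyc06g053840) and *IAA2* (Solyc06g084070). *IAA3* (Solyc09g065850) and *IAA14* (Solyc09g083290) carry the number of chromosome 9, and *IAA8* (Solyc12g007230) that of chromosome 12. *IAA7* and *IAA4* are listed side by side, with 0 genes between them, and so are *IAA19* and *IAA15*, whereas 9 listed genes separate *IAA15* from *IAA27*.

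Library totals ranged from 7283885 to 10091231 counts in *kyp* and from 8925379 to 11012421 in WT. Levels are given as counts scaled to the library size (CPM) after TMM scaling, a correction for the composition of the library, and 3 counts, the smallest signal considered here, equal 0.264 to 0.422 CPM. A count grows with the length of the gene, which was not used here, so that levels were compared between libraries and not between genes. Transcripts that mark a leaf blade were present, with *rbcL*, which encodes the large subunit of Rubisco, at 70.0 to 117.3 CPM in *kyp* and 116.7 to 258.8 CPM in WT. Of 5 nuclear identifiers listed for photosynthesis, the 4 present in the table summed to 6971 to 8523 CPM in *kyp* and 5721 to 8014 CPM in WT. Single leaf markers differed between the genotypes in opposite directions in the test described below. Plastid *psbA* was lower in *kyp* (log2 fold change -1.12, adjusted p = 0.0191, edgeR). Nuclear Solyc02g070950 was higher (log2 fold change 0.72, adjusted p = 0.0249, edgeR), and the other leaf markers examined, *rbcL* included, did not pass. A list of 5 flower and fruit identifiers summed to at most 0.110 CPM in any *kyp* library and 0.617 CPM in any WT library. Counts of libraries of the same genotype differed by more than sampling noise, with chi-square values of 4.56 to 11.7 per degree of freedom. The pair of *kyp* libraries closest to each other was replicates 1 and 3.

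Of the 10 genes, *IAA4* alone passed the threshold and was higher in *kyp*, and none passed it in the other direction. All 10 genes passed the filter on low counts. The test was edgeR's quasi-likelihood test with Benjamini-Hochberg adjustment over all genes tested, at an adjusted p under 0.05, and it called 24.9% of the 20154 genes tested. Higher calls made up 14.8% of the genes tested and lower calls 10.2%. By the unadjusted p, 4 of the 10 members were under 0.05 (*IAA4*, *IAA8*, *IAA15* and *IAA19*), against 37.7% of all genes tested. The *kyp* and WT libraries did not overlap for 2 members, *IAA4* and *IAA8*, against 42.4% of all genes tested. The log2 fold changes of the members, *kyp* over WT, ran from -0.68 to 0.53, with 5 above 0 and 5 below. Their median was 0.05, against -0.01 over all genes tested, and their median absolute value was 0.24, against 0.26. Since a whole leaf was extracted, fewer cells of a type and less RNA per cell cannot be told apart for any of these genes.

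**Figure D1:**
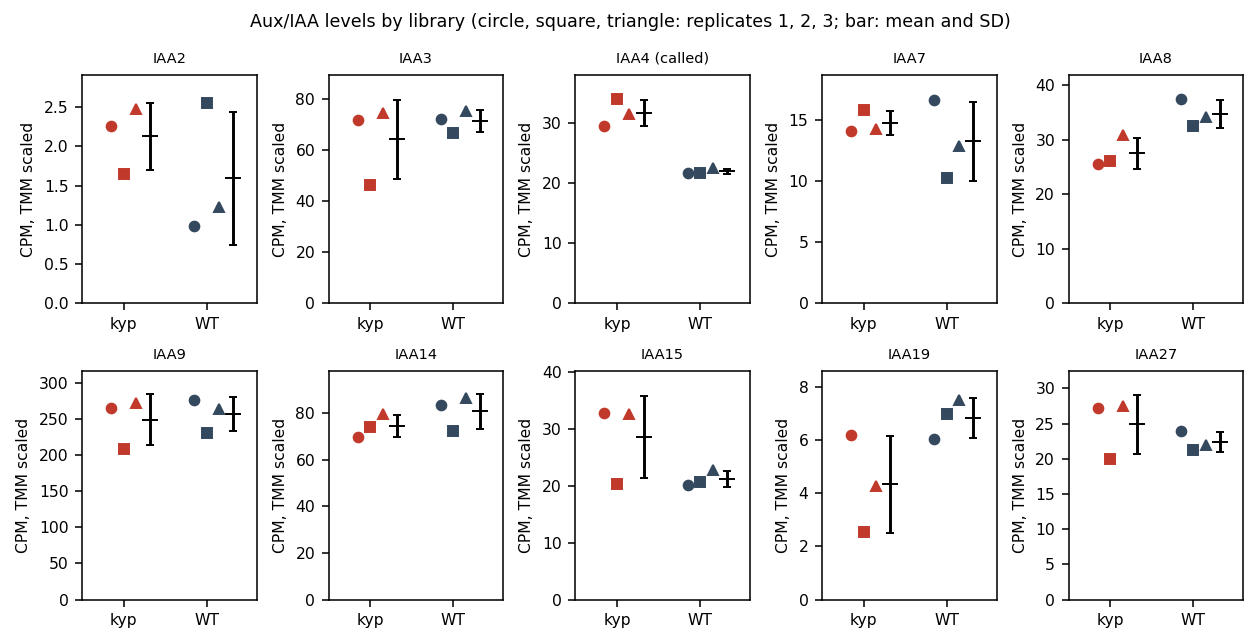
Level of each Aux/IAA gene in CPM (TMM scaled, vertical axis from 0) in the 3 *kyp* libraries (red, left) and the 3 WT libraries (blue-grey, right), with the mean and SD beside them. The *kyp* libraries lie above all WT libraries for *IAA4* and below them for *IAA8*, and the genotypes overlap for the 8 other genes.

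*IAA4* rose in *kyp*. It had 29.6, 34.0 and 31.5 CPM in the *kyp* libraries, against 21.7, 21.8 and 22.5 CPM in the WT libraries. Every *kyp* library was above every WT library, and the coefficient of variation (CV) was 6.97% in *kyp* and 1.92% in WT. The mean was 31.7 ± 2.21 CPM in *kyp* and 22.0 ± 0.422 CPM in WT (SD, n = 3 each), which is a 1.44-fold difference with a 95% interval of 1.23 to 1.69. The log2 fold change was 0.53 with a standard error of 0.10 (adjusted p = 0.00571, edgeR). *IAA4* passed the threshold under all 14 alternative settings, with adjusted p values from 0.00237 to 0.0275.

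*IAA7*, the direct neighbour of *IAA4*, did not pass the test. Its levels were 14.1, 15.8 and 14.3 CPM in *kyp*, against 16.7, 10.2 and 12.9 CPM in WT. The WT libraries spread around the *kyp* values on both sides, with a CV of 24.4% in WT and 6.53% in *kyp*. Between the genotypes it differed 1.12-fold, with an interval of 0.836 to 1.49 (adjusted p = 0.567, edgeR). The ratio of the 2 genes within a library depends neither on depth nor on the scaling. *IAA4* had 2.10, 2.15 and 2.21 counts for each count of *IAA7* in *kyp*, against 1.30, 2.13 and 1.75 in WT, so that the genotypes overlapped (p = 0.2, exact permutation test, two-sided, and 0.2 after adjustment over the 3 ratios compared).

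*IAA8* was lower in every *kyp* library than in every WT library but missed the threshold. It had 25.6, 26.2 and 30.8 CPM in *kyp*, against 37.5, 32.5 and 34.1 CPM in WT. Its mean was 27.5 ± 2.86 CPM in *kyp* and 34.7 ± 2.52 CPM in WT (SD, n = 3 each), and the gap between the genotypes, from 30.8 to 32.5 CPM, was smaller than either SD. The fold change was 0.796 with an interval of 0.666 to 0.952, and edgeR's test gave an adjusted p of 0.0654. Scaled by library totals alone, without TMM, *IAA8* passed with a log2 fold change of -0.38 (adjusted p = 0.0456, edgeR). That scaling also moved the median log2 fold change over all genes tested, from -0.007 to -0.063.

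*IAA15* and *IAA19*, which are listed side by side, pointed in opposite directions in *kyp*, and neither passed the test. Reduced *IAA15* in tomato is known to lower the number of trichomes. *IAA15* had 32.8, 20.2 and 32.5 CPM in *kyp*, against 20.0, 20.6 and 22.7 CPM in WT. *kyp* replicates 1 and 3 were above all WT libraries, whereas replicate 2 lay among them. The fold change was 1.35 with an interval of 1.01 to 1.80 (adjusted p = 0.123, edgeR). Without *kyp* replicate 2 the log2 fold change was 0.63 in place of 0.43, and *IAA15* passed (adjusted p = 0.00449, edgeR).

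*IAA19* had 6.20, 2.53 and 4.26 CPM in *kyp*, against 6.02, 6.96 and 7.49 CPM in WT. The highest *kyp* library was above the lowest WT library, and the *kyp* values had a CV of 42.4%, the largest of the 10 genes in *kyp*. These values rest on 44, 23 and 43 counts in *kyp* and 55, 79 and 67 in WT, and the 23 counts of *kyp* replicate 2 have a 95% Poisson interval of 14.6 to 34.5, which covers counting error only. The fold change was 0.625 with an interval of 0.393 to 0.994 (adjusted p = 0.128, edgeR). Without *kyp* replicate 1 the log2 fold change was -0.996 and *IAA19* passed (adjusted p = 0.0447, edgeR).

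Set against each other within a library, *IAA15* had 5.30, 8.0 and 7.63 counts for each count of *IAA19* in *kyp*, against 3.33, 2.96 and 3.03 in WT. The ratio averaged 6.97 ± 1.47 in *kyp* and 3.11 ± 0.194 in WT (SD, n = 3 each), and all *kyp* libraries were above all WT libraries, replicate 2 included. The difference in the log2 ratio was 1.15, with p = 0.1 by the exact permutation test, which is the smallest value that 3 libraries against 3 allow (0.15 after adjustment over the 3 ratios compared). The 3 ratios were formed after the levels of the genes were known, a choice that the adjustment does not cover, and their values describe these 6 libraries. How often the ratios of other neighbouring genes separate the genotypes was not computed.

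**Figure D2:**
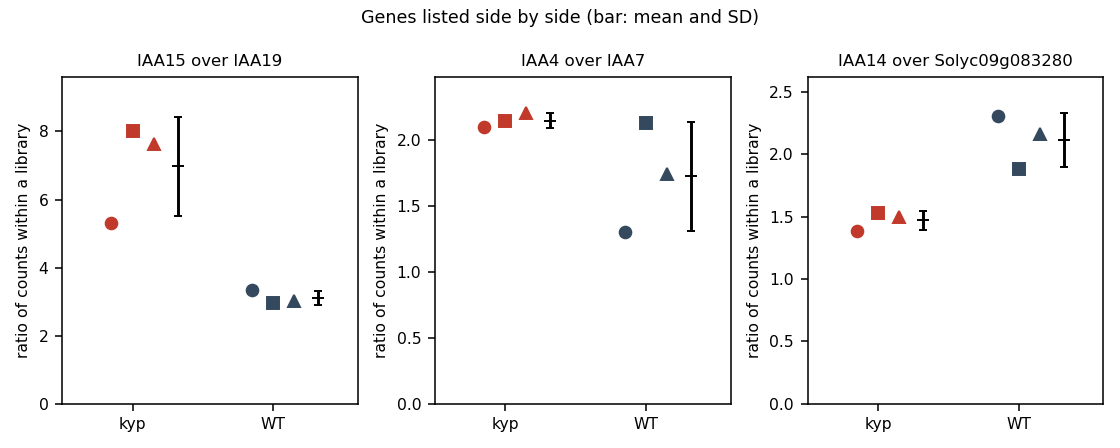
Ratio of counts within each library (vertical axes from 0) for 3 neighbouring pairs of genes, with *kyp* (red) left of WT (blue-grey), replicates 1, 2 and 3 as circle, square and triangle, and the mean and SD beside them. The ratio of *IAA15* to *IAA19* lies between 5.30 and 8.0 in *kyp* and between 2.96 and 3.33 in WT. The ratio of *IAA4* to *IAA7* overlaps between the genotypes. The ratio of *IAA14* to Solyc09g083280 is lower in *kyp*, where Solyc09g083280 was itself called higher.

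*IAA14* did not pass the test. It had 69.8, 73.8 and 79.3 CPM in *kyp*, against 83.3, 72.0 and 86.5 CPM in WT. WT replicate 2 lay among the *kyp* libraries and the others above them. For *IAA14* the fold change was 0.923 with an interval of 0.789 to 1.08 (adjusted p = 0.442, edgeR), so that a change as large as that of *IAA4* lay outside the interval. Solyc09g083280, listed directly before *IAA14*, rose in *kyp* to 50.5 ± 2.38 CPM, against 38.2 ± 1.93 CPM in WT (SD, n = 3 each). Its log2 fold change was 0.40 (adjusted p = 0.0119, edgeR), and it is also among the further identifiers listed as Aux/IAA below. The ratio of *IAA14* to this neighbour was 1.39, 1.53 and 1.498 in *kyp*, against 2.30, 1.88 and 2.16 in WT, without overlap (p = 0.1, exact permutation test, the smallest value possible, and 0.15 after adjustment). Since the neighbour was itself called and *IAA14* was not, this ratio is not a result about *IAA14* alone.

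*IAA9*, the regulator of leaf shape, had the most counts behind it, from 1886 to 2753 per library. It had 265.6, 208.5 and 272.9 CPM in *kyp*, against 276.8, 230.4 and 263.9 CPM in WT. The genotypes overlapped, and replicate 2 was the lowest library of each. The mean was 249.0 ± 35.2 CPM in *kyp* and 257.0 ± 24.0 CPM in WT (SD, n = 3 each). For *IAA9* the fold change was 0.969 with an interval of 0.793 to 1.18 (adjusted p = 0.827, edgeR), so a change beyond these bounds in either direction lay outside the interval.

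*IAA3*, known in tomato for a part in the cross-talk of auxin with ethylene, had 72.0, 46.6 and 74.6 CPM in *kyp*, against 72.4, 66.8 and 75.4 CPM in WT. *kyp* replicates 1 and 3 lay within the WT range, and replicate 2 was below all other libraries. The fold change was 0.900 with an interval of 0.692 to 1.17 (adjusted p = 0.549, edgeR). Without *kyp* replicate 2 the log2 fold change turned to 0.04, and that of *IAA9* to 0.07, and neither passed the test.

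*IAA27*, known from silenced tomato lines for effects on chlorophyll content and fruit, had 27.2, 20.0 and 27.5 CPM in *kyp*, against 24.0, 21.2 and 22.0 CPM in WT. *kyp* replicates 1 and 3 were above all WT libraries and replicate 2 was below them. For *IAA27* the fold change was 1.11 with an interval of 0.885 to 1.39 (adjusted p = 0.484, edgeR).

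*IAA2* had the fewest counts of the 10 genes, with 16, 15 and 25 counts in *kyp* and 9, 29 and 11 counts in WT. Its levels were 2.25, 1.65 and 2.48 CPM in *kyp*, against 0.986, 2.56 and 1.23 CPM in WT. The highest and the lowest value were both in WT, where the CV was 53.2%. The 9 counts of WT replicate 1 have a 95% Poisson interval of 4.12 to 17.1 and the 29 counts of replicate 2 an interval of 19.4 to 41.6, neither scaled for depth and both for counting error only. The interval of the fold change, 0.701 to 2.42, was the widest of the 10 genes (adjusted p = 0.521, edgeR).

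**Figure D3:**
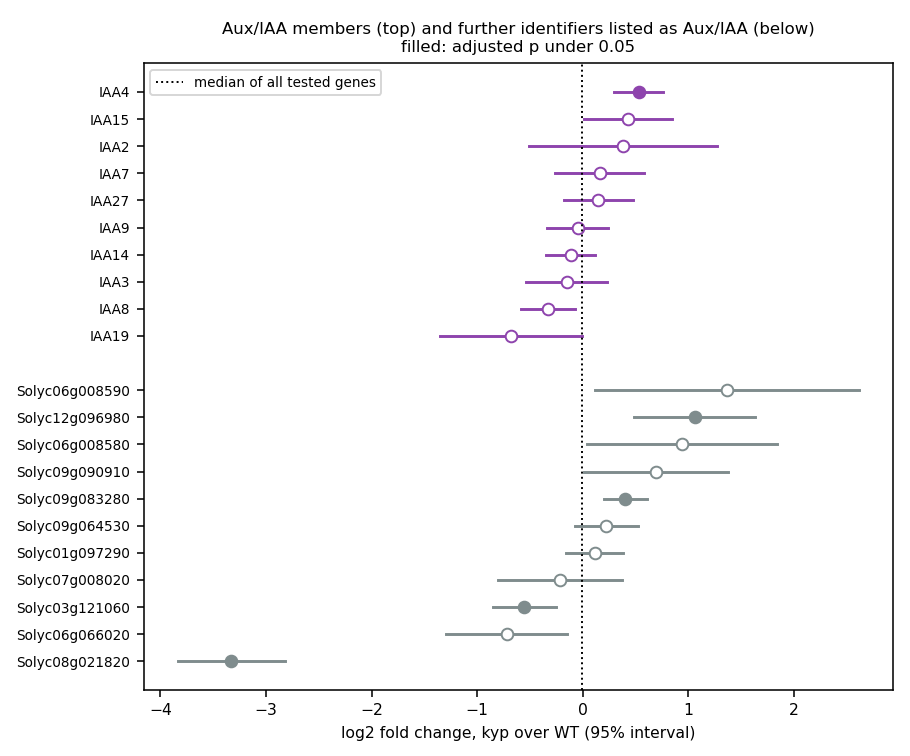
Log2 fold change, *kyp* over WT, with its 95% interval (horizontal axis) for the 10 Aux/IAA genes (purple, top) and 11 further identifiers listed as Aux/IAA (grey, bottom), where filled points have an adjusted p under 0.05 and the dotted line is the median of all tested genes at -0.01. *IAA4* is the only filled point at the top and stands at 0.53, and Solyc08g021820 stands apart at -3.33.

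Within *kyp*, replicate 2 had the lowest level of 6 of the 10 genes, namely *IAA2*, *IAA3*, *IAA9*, *IAA15*, *IAA19* and *IAA27*. Its level relative to the mean of the other *kyp* libraries ran from 0.484 for *IAA19* to 1.12 for *IAA7*, with a median of 0.754 over the 10 genes and of 1.00 over all tested genes. *IAA4*, *IAA7*, *IAA8* and *IAA14* were within 0.927 to 1.12 of that mean. Over all tested genes, replicate 2 was the lowest *kyp* library for 35.7%. It was also the lowest for 8 of the 11 further identifiers listed as Aux/IAA (72.7%) and for 33 of the 46 tested genes of the auxin pathway lists (71.7%), which include those 11. In WT, replicate 2 was likewise the lowest for 6 of the 10 genes, against 24 of the 46 pathway genes (52.2%) and 33.5% of all tested genes, although *IAA2* was highest there. Summed over the 10 genes, the level was 545.1, 449.3 and 570.1 CPM in *kyp*, against 559.3, 485.1 and 548.6 CPM in WT, so that the sums overlapped. *IAA9* alone made up 265.6, 208.5 and 272.9 CPM of these sums in *kyp* and 276.8, 230.4 and 263.9 CPM in WT. The sums thus weigh that gene most. A pair of identifiers listed for shoot meristem and leaf primordium summed to 4.08, 8.36 and 3.57 CPM in *kyp* and 6.02, 5.99 and 8.83 CPM in WT. Of this pair, Solyc02g083950 had 4 counts in WT replicate 2 and 0 in every other library, so that the sums rest on Solyc02g081120. The part of these genes in the Aux/IAA levels was not tested.

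**Figure D4:**
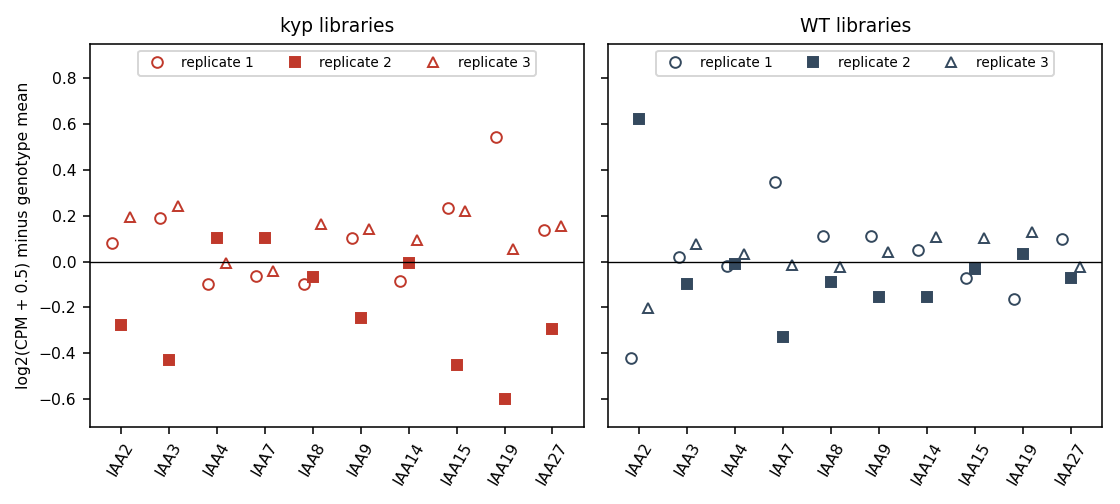
Deviation of each library from the mean of its genotype, in log2(CPM + 0.5), for the 10 Aux/IAA genes in *kyp* (left, red) and WT (right, blue-grey), with replicate 2 as filled squares. In *kyp*, replicate 2 is the lowest library for 6 genes and reaches -0.60 for *IAA19*, and in WT the largest deviation is 0.62 for *IAA2* in replicate 2.

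The other direct neighbours of the members in the count table were examined for changes of the same kind. Solyc03g120510, listed after *IAA27*, fell in *kyp*, its log2 fold change being -0.40 (adjusted p = 0.0454, edgeR). The neighbours of *IAA4* and *IAA7* that are not members themselves, Solyc06g053850 and Solyc06g053820, had log2 fold changes of -0.07 and 0.26 and did not pass. *IAA8* is flanked by Solyc12g007220 with 0 counts in every library and Solyc12g007240 with at most 3 counts, and Solyc03g120370 before *IAA19* and Solyc09g083300 after *IAA14* had 0 counts in every library. The neighbours of *IAA2* (Solyc06g084060 and Solyc06g084080), *IAA3* (Solyc09g065840 and Solyc09g065860) and *IAA9* (Solyc04g076845 and Solyc04g076860), and Solyc03g120410 after *IAA15* and Solyc03g120490 before *IAA27*, did not pass the test.

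For comparison, 11 further identifiers were listed as Aux/IAA from general knowledge of the family. Their median absolute log2 fold change was 0.69, against 0.24 for the 10 members named above. Their median standard error was larger too, at 0.251 against 0.155. An absolute value grows with noise, so that these medians are not directly comparable. All 11 were tested, and 4 were called (36.4%, against 24.9% of all genes tested), of which 2 were higher and 2 lower in *kyp*. Solyc08g021820 fell to 6.06, 4.73 and 3.47 CPM in *kyp*, against 54.4, 49.7 and 36.5 CPM in WT. The highest *kyp* library had 43 counts and the lowest WT library 327, and the log2 fold change was -3.33 with a standard error of 0.22 (adjusted p = 3.64e-05, edgeR). Solyc03g121060 fell with a log2 fold change of -0.55, and Solyc12g096980 rose by 1.06 on the log2 scale, with 12 to 30 counts per library. The other identifier called higher was Solyc09g083280, the neighbour of *IAA14* described above, with a log2 fold change of 0.40. Over members and further identifiers together, 5 of 21 genes were called, or 23.8%, against 24.9% of all genes tested. Whether the lists differ from each other was not tested.

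Other parts of the auxin pathway were counted in the same fit, on lists whose family names rest on general knowledge of tomato genes. PIN proteins carry auxin out of cells, and of 10 identifiers listed for them 7 were tested. For these and the following lists, the share called over all tested genes was 24.9%. Of the 7 tested PIN identifiers, 4 were called higher in *kyp* and 0 were called lower. By direction alone, 6 had a log2 fold change above 0 and 1 below. The named PIN identifiers were Solyc01g068410, with a log2 fold change of 2.55, Solyc04g007690 with 1.56 and Solyc10g080880 with 0.81. Solyc01g068410 had 11, 19 and 25 counts in *kyp*, against 5, 1 and 4 in WT. Its WT counts were near the smallest signal considered here, and only its *kyp* counts reached the 10 of the filter. GH3 enzymes join auxin or jasmonate to amino acids, and 5 of 8 tested identifiers were called. Of these, Solyc02g064830 and Solyc01g107390 rose by 1.82 and 1.40 on the log2 scale. The WT libraries of Solyc02g064830 spread widely, with 8, 38 and 4 counts, against 54, 36 and 61 in *kyp* (CV of 101% in WT). Solyc01g095580, Solyc08g068490 and Solyc10g008520 had log2 fold changes of -0.65, -0.40 and -0.35. Among ARFs, the partners of Aux/IAA proteins, 2 of 17 tested identifiers were called higher and 3 were called lower. Those called higher were Solyc08g082630, by 1.34 on the log2 scale, and Solyc08g008380, by 0.47. Those called lower were Solyc06g075150, Solyc03g031970 and Solyc07g042260, with -0.81, -0.47 and -0.47. The genotypes overlapped for Solyc08g082630, with 28.3, 9.24 and 25.5 CPM in *kyp*, against 11.5, 7.32 and 6.03 CPM in WT. Of 3 tested TIR1/AFB identifiers, Solyc04g074980 had a log2 fold change of 0.35 and Solyc02g079190 of -0.40, and both were called. Over all these lists, the further Aux/IAA identifiers included, 20 of 46 tested genes were called (43.5%), 11 higher and 9 lower. Over all genes tested, 14.8% were called higher and 10.2% lower. Scaled by library totals alone, 19 were called, 8 higher and 11 lower. Calls over all genes moved the same way, with 2681 higher and 2605 lower, against 2982 and 2046 with TMM. Without *kyp* replicate 1 or without WT replicate 1 these lists gave 10 calls, 5 higher and 5 lower in each case. Without *kyp* replicate 3 they gave 11 calls, 3 higher and 8 lower, and without WT replicate 2 they gave 11, 5 higher and 6 lower. Without *kyp* replicate 2 they gave 23, 17 higher and 6 lower, so that the balance of directions turned with the library left out. The share called over all genes tested moved too. It was 18.3% without *kyp* replicate 1, 18.2% without WT replicate 1, 17.5% without *kyp* replicate 3 and 17.3% without WT replicate 2. Without *kyp* replicate 2 it was 26.8%, against 24.9% with all libraries.

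**Figure D5:**
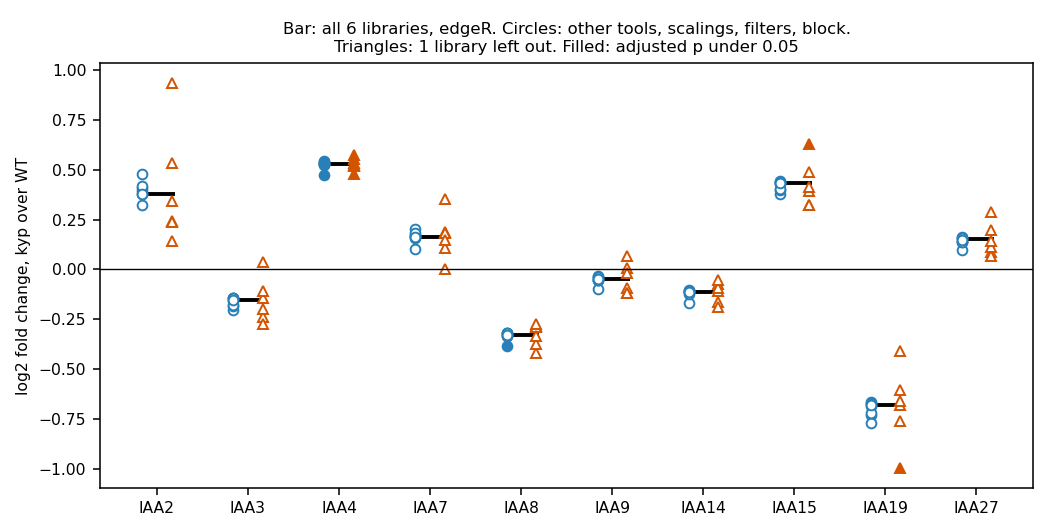
Log2 fold change, *kyp* over WT, of the 10 Aux/IAA genes with all 6 libraries (black bar), under other tools, scalings, filters and the replicate block (blue circles) and with 1 library left out (orange triangles), where filled symbols have an adjusted p under 0.05. *IAA4* is filled throughout, between 0.47 and 0.58, and *IAA3* and *IAA9* lie on both sides of 0.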

How the data were processed

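RNA was extracted from the fourth leaf of 4-week-old M82 plants and sequenced as directional paired-end libraries, 3 of *kyp* and 3 of WT. The authors deposited raw counts of reads on each gene, as integers for each library and not normalized. The paper's methods name Bowtie2 on the M82 genome, with removal of duplicates and of low mapping qualities, whereas the submitters' processing notes name HISAT2 2.2.1, featureCounts and DESeq2; which of these made the counts, the strand setting and the annotation release are not given in the sources used here, so that counts of overlapping or near-identical genes are uncertain. Totals ran from 7283885 to 11012421 counts, and no sample column was left out.

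Counts were tested in R 4.3.3 with edgeR 4.0.16 (TMM, filterByExpr with a minimum of 10 counts, estimateDisp, glmQLFit, glmQLFTest), with genotype as the only factor and Benjamini-Hochberg adjustment over all 20154 genes tested. The threshold was an adjusted p under 0.05. CPM were scaled by TMM. Standard errors came from the log2 fold change and its F statistic. Alternatives were DESeq2 1.42.0, limma-voom (limma 3.58.1), other scalings and filters, leaving out the organelle genes, a block on the replicate number, and the omission of each library. Ratios between neighbouring genes were compared with a two-sided exact permutation test.

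The members and lists were chosen with earlier results of these data known. Of the other auxin pathway lists, up to 3 called genes in each direction per list were named, ranked by absolute log2 fold change and limited to genes that averaged 1 CPM or more in the higher genotype. The RefSeq gene table (SLM_r2.1) does not pair nuclear identifiers with symbols, so membership of those lists rests on general knowledge of tomato gene families. For the same reason *KYP* was not reported.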

Additional observations from a re-analysis of the deposited data

How the results depend on the processing

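*IAA4* was called under each alternative. The number of Aux/IAA genes called was 1 except for 3 settings that gave 2: library totals alone, with *IAA8*, without *kyp* replicate 1, with *IAA19*, and without *kyp* replicate 2, with *IAA15*. It thus ranged from 1 to 2 over the fits that left out 1 library, and the cause was not tested. The auxin pathway genes called ranged from 10 to 23 over those fits, against 20, and the genes called in all from 3538 to 5431, against 5028. The log2 fold change turned its sign for *IAA3* (-0.27 to 0.04) and *IAA9* (-0.12 to 0.07) over the same fits, and neither gene was called. Without *kyp* replicate 2 the values were 0.036 for *IAA3* and 0.067 for *IAA9*, and without WT replicate 1 *IAA9* was at 0.0084. No other member changed sign. Where a library is left out, its genotype keeps 2 libraries. Whether the replicate numbers pair the libraries is not given in the sources used here. The deviations of libraries with the same number correlated with r of 0.17, 0.061 and -0.043. Those of libraries with different numbers correlated with r from -0.265 to 0.174. With 3 libraries per genotype, these values do not settle the question. With the replicate number as a block, 1 Aux/IAA gene, 23 pathway genes and 4867 genes in all were called. *IAA2* could not be tested with at least 10 counts in every library. *IAA2* and *IAA19* had the fewest counts of the 10 genes, with 105 and 311 over all libraries.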
